A study of Oryza sativa Japonica Group with 12 samples.

Results

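The genes described here were measured at a low level in the *japonica* rice line ‘CH8’ and at a higher level in the lines ‘CH7’ and ‘CH9’, its partners in a study of hybrid weakness. They were chosen by their values on the arrays of these 3 parents. A probe set, the group of probes that reads a single transcript, was taken when it was listed for 1 gene and when its lowest value over the ‘CH7’ and ‘CH9’ arrays exceeded its highest value over the ‘CH8’ arrays by at least 1 on the log2 scale, a 2-fold gap. *NAAT1*, a nicotianamine aminotransferase of mugineic acid synthesis, was left out. The rule took 162 probe sets of 161 genes out of 54922 probe sets, of which 24080 were listed for 1 gene. A further 84 probe sets passed the same gap without a single listed gene and are not described.

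The study set the 3 parents beside their F1 hybrids ‘CH7/8’, ‘CH8/9’ and ‘CH7/9’, all grown in a greenhouse without any treatment and harvested whole when tillering. Hybrid weakness is the stunted, chlorotic growth of F1 plants whose parents grow normally. Each RNA came from an independent plant according to the study's methods. There were 2 arrays per line, 12 in all. This is fewer than the replicates that the methods name for each line. ‘CH7/8’ and ‘CH8/9’ carry a ‘CH8’ genome beside that of ‘CH7’ or ‘CH9’ and are together called the ‘CH8’ hybrids, and ‘CH7/9’ carries none.

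An F1 plant holds an allele of every gene from each parent. Where the parents differ in the allele itself, through its promoter, its transcript or a deletion, the hybrid often has an intermediate transcript level, because the active allele still works beside the weak one. Where a shared regulator, the stage or the state of the plant sets the level, both alleles are read alike and the hybrid may lie anywhere relative to its parents. An array probe also binds less RNA when the line's sequence differs from the probe, so weaker binding to a ‘CH8’ transcript and a smaller amount of it cannot be told apart. In whole plants, fewer cells of a type and less RNA per cell cannot be told apart either.

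Across the 162 probe sets, the median of ‘CH8’ minus ‘CH7’ was -2.31 on the log2 scale and that of ‘CH8’ minus ‘CH9’ was -1.88, while all probe sets had a median of -0.03 for ‘CH8’ minus the mean of the others. The gap between the highest ‘CH8’ array and the lowest array of the other parents ran from 1.0 to 6.36, with a median of 1.39. It was at least 2 for 35 probe sets, at least 3 for 15 and at least 4 for 6. These values chose the genes and are given without a test. The genes just inside the limit were *LOC4351063*, *LOC4350127* and *LOC4336261*, with gaps of 1.0, 1.01 and 1.01, and those just outside were *LOC4335777*, *LOC4334654* and *LOC4340331*, with gaps of 0.998, 0.998 and 0.991. The number depends on both ‘CH8’ arrays, and the same rule took 368 probe sets without ‘CH8’ replicate 1 and 278 without ‘CH8’ replicate 2. Leaving out an array can only keep or raise this number.

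On both ‘CH8’ arrays, 77 of the 162 probe sets lay above the array's median and 14 lay below its first quartile. None lay below the first quartile on both arrays of any other line. The median of the ‘CH8’ means over the 162 was 3.63 on the log2 scale. These ranks do not show whether a transcript was above background in ‘CH8’, which was not tested. Between the partners, 121 of the 162 were lower in ‘CH9’ than in ‘CH7’, with a median difference of ‘CH9’ minus ‘CH7’ of -0.23. At least 2-fold separated them for 25 that were lower and 5 that were higher in ‘CH9’.

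The largest gap was that of *LOC9270219*, a long non-coding RNA on chromosome 11. Its log2 intensity was 2.22 and 1.91 on the ‘CH8’ arrays, against 8.96 and 8.65 in ‘CH7’ and 8.65 and 8.58 in ‘CH9’. In ‘CH7/8’ it was 7.8 and 8.18 and in ‘CH8/9’ it was 8.23 and 8.16, against 8.69 and 8.57 in ‘CH7/9’. It was below the array's first quartile in ‘CH8’ alone, and all 4 arrays of the ‘CH8’ hybrids lay just below both ‘CH7/9’ arrays.

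*LOC4346790*, a protein-coding gene on chromosome 9, varied more between plants. It had 1.30 and 1.74 in ‘CH8’, against 8.62 and 8.58 in ‘CH7’ and 6.70 and 6.97 in ‘CH9’. The ‘CH7/8’ arrays gave 6.49 and 4.39 and the ‘CH8/9’ arrays 5.14 and 6.09, against 7.36 and 7.30 in ‘CH7/9’. The ‘CH8’ hybrids lay between ‘CH8’ and every other line, with the ‘CH7/8’ plants over 2 log2 units apart. *LOC4351993* on chromosome 12 was tighter. It had 8.32 and 8.26 in ‘CH7/8’ and 8.24 and 8.39 in ‘CH8/9’, against 9.53 and 9.34 in ‘CH7/9’, while ‘CH8’ itself had 3.95 and 4.83.

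Among the 12 largest gaps, 10 genes had all 4 ‘CH8’ hybrid arrays below both ‘CH7/9’ arrays, an order that 18.2% of all probe sets had. The exceptions were *LOC9269561* on chromosome 12 and *LOC9272594* on chromosome 5. *LOC9272594* read 2.05 and 2.1 in ‘CH8’, yet 4.96 and 6.09 in ‘CH7/8’ and 5.86 and 6.40 in ‘CH8/9’, against 6.08 and 5.57 in ‘CH7/9’. Its hybrids overlapped, and the plot of the largest gaps shows it beside the others.

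**Figure D1:**
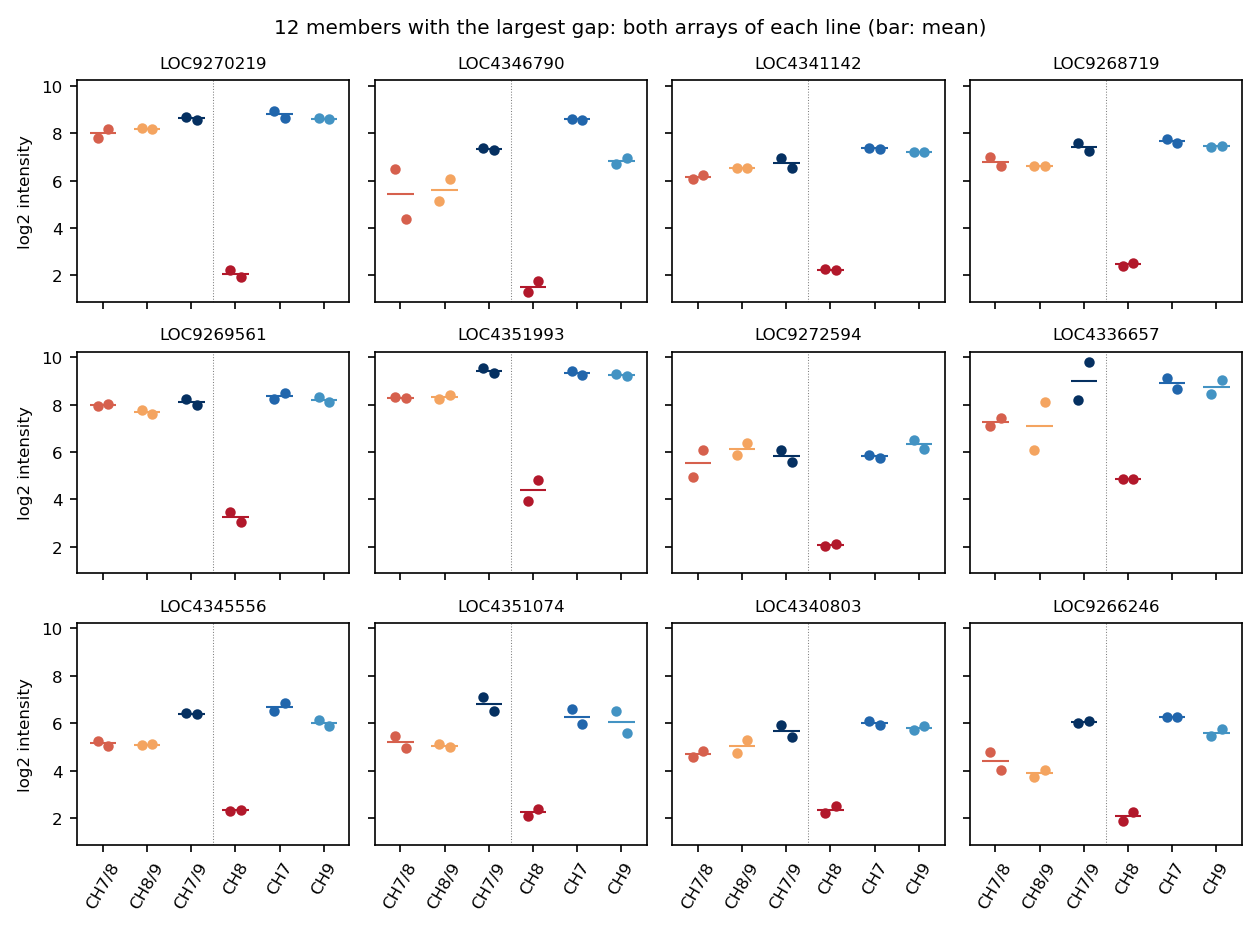
Log2 intensity (y axis) of the 12 genes with the largest gap in each line (x axis), hybrids left of the dotted line and parents right of it, with a point for each array and a bar at the mean. ‘CH8’ is lowest in every panel, at 2.22 and 1.91 for *LOC9270219*. In 10 of the panels all 4 points of ‘CH7/8’ and ‘CH8/9’ lie below both points of ‘CH7/9’. Their differences of means run from -0.40 for *LOC4341142* to -1.89 for *LOC9266246*. Of all probe sets, 18.2% had this order.

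Only 15 of the 162 probe sets, or 9.26%, had a gene name other than a locus or clone code, compared with 11.5% of the probe sets with 1 gene. The named genes fell into metal and water transport, cell walls, metabolism and signalling, apart from the chitinase gene *Cht11*. No locus code is given a role here. By gene class, 142 of the 161 genes were protein-coding and 11, or 6.83%, were long non-coding RNAs, which made up 2.24% of the measured genes.

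The transporter genes included 2 of the ZIP family, which carries zinc and iron into cells. *ZIP1*, also listed as *ZIP8*, had 5.59 and 5.79 in ‘CH8’, against 8.20 and 7.94 in ‘CH7’ and 7.50 and 8.27 in ‘CH9’. Its ‘CH7/8’ arrays at 7.51 and 6.62 and its ‘CH8/9’ arrays at 6.72 and 7.35 were below the ‘CH7/9’ arrays at 7.52 and 8.59 in every case. *ZIP9*, a zinc uptake transporter of rice roots, had 3.03 and 3.09 in ‘CH8’, against 6.71 and 4.49 in ‘CH7’ and 5.01 and 7.53 in ‘CH9’. All hybrids were low for *ZIP9*, at 4.20 and 3.31 in ‘CH7/8’ and 2.74 and 4.67 in ‘CH8/9’, against 3.13 and 4.57 in ‘CH7/9’, so that the groups overlapped and the line without ‘CH8’ was no exception. The difference of the ‘CH8’ hybrids from ‘CH7/9’ was -0.12 with a standard error of 0.65. *HAK17*, a member of the HAK potassium transporters, had 3.90 and 3.70 in ‘CH8’, against 5.10 and 5.06 in ‘CH7’ and 5.31 and 5.80 in ‘CH9’. For *HAK17* the hybrids separated, with 5.01 and 4.15 in ‘CH7/8’ and 4.80 and 4.01 in ‘CH8/9’, against 5.79 and 6.25 in ‘CH7/9’. The aquaporin gene *PIP2-7* differed widely within ‘CH8’, at 6.94 and 3.64, and its ‘CH8/9’ arrays at 6.74 and 6.83 did not exceed the higher of these.

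The lists of these families were counted beside the share of all measured genes that were in the group, 0.675%. Of 29 measured potassium transport genes, *HAK17* was the only one in the group, and of 41 genes of iron and zinc uptake and mugineic acid synthesis, *ZIP1* and *ZIP9* were the only ones, with *NAAT1* left out by the rule. None of 12 ammonium and nitrate transporters, 24 phosphate transporters and sensors and 22 bZIP transcription factors was in the group. Nor was any of 10 panicle and 5 endosperm markers. At the share over all genes, lists of this size would seldom hold a member, so nothing is read from their absence. In the hybrid comparison described next, 0 genes of the 5 transporter, metal and bZIP lists were called by limma in either direction. Over all probe sets, 0.0892% were called lower and 0.126% higher, so nothing is read from these 0 calls. At an unadjusted p under 0.05, 6 of the 29 potassium genes were lower and 3 higher in the ‘CH8’ hybrids, and 5 of the 41 iron and zinc genes were lower and 3 higher, where 9.2% of all probe sets were lower and 5.38% higher.

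The cell wall genes were *PMEI28*, an inhibitor of pectin methylesterase, *BC1L6*, of the COBRA-like proteins that act in cellulose assembly, and *CSLA3*, of a mannan synthase family. The chitinase gene *Cht11* is described beside them and is not counted as a cell wall gene. *BC1L6* had 5.01 and 5.59 in ‘CH8’, against 6.92 and 6.90 in ‘CH7’ and 7.09 and 7.10 in ‘CH9’. *Cht11* had 4.75 and 3.84 in ‘CH7/8’ and 4.07 and 3.58 in ‘CH8/9’, against 5.75 and 5.90 in ‘CH7/9’, and kept 35.0% of the ‘CH7’ level and 52.5% of the ‘CH9’ level. *CSLA3* had 7.0 and 6.44 in ‘CH7/8’ and 6.39 and 5.72 in ‘CH8/9’, against 7.09 and 8.14 in ‘CH7/9’. The ‘CH8’ hybrids lay below both ‘CH7/9’ arrays for *BC1L6*, *Cht11* and *CSLA3* and overlapped them for *PMEI28*.

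The signalling genes were *CML29*, of the calmodulin-like calcium sensors, *OsITPK3*, an inositol phosphate kinase, and *HAP5C*, also listed as *NFYC2*, a subunit of the NF-Y transcription factor that binds CCAAT boxes. *HAP5C* had 5.99 and 5.35 in ‘CH7/8’ and 4.22 and 5.49 in ‘CH8/9’, against 7.47 and 7.68 in ‘CH7/9’. Both ‘CH7/9’ arrays were above those of its parents, at 7.14 and 6.95 in ‘CH7’ and 6.0 and 6.19 in ‘CH9’. *CML29* showed the spread within ‘CH7/8’, where replicate 1 at 8.53 was close to the ‘CH7’ arrays at 8.67 and 8.73 and replicate 2 at 7.0 was below both ‘CH8’ arrays at 7.27 and 7.10.

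The metabolic genes were *BADH2*, *HO2*, *PDX12* and *CFBP1*. *BADH2* encodes a betaine aldehyde dehydrogenase, an enzyme that oxidises aldehydes, and had 4.71 and 4.83 in ‘CH8’, against 6.42 and 6.61 in ‘CH7’ and 6.67 and 6.40 in ‘CH9’. Its hybrids were closer to the higher parents, at 6.07 and 6.18 in ‘CH7/8’ and 5.83 and 6.30 in ‘CH8/9’, against 6.37 and 6.92 in ‘CH7/9’. *HO2*, of the heme oxygenase family, gave nearly the same value on all 4 arrays of the ‘CH8’ hybrids, at 4.93 and 4.99 in ‘CH7/8’ and 4.97 and 4.86 in ‘CH8/9’, against 5.61 and 5.72 in ‘CH7/9’. *BADH2* kept 76.1% and *HO2* 66.2% of the ‘CH7’ level in ‘CH7/8’, and they kept 72.9% and 69.3% of the ‘CH9’ level in ‘CH8/9’.

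**Figure D2:**
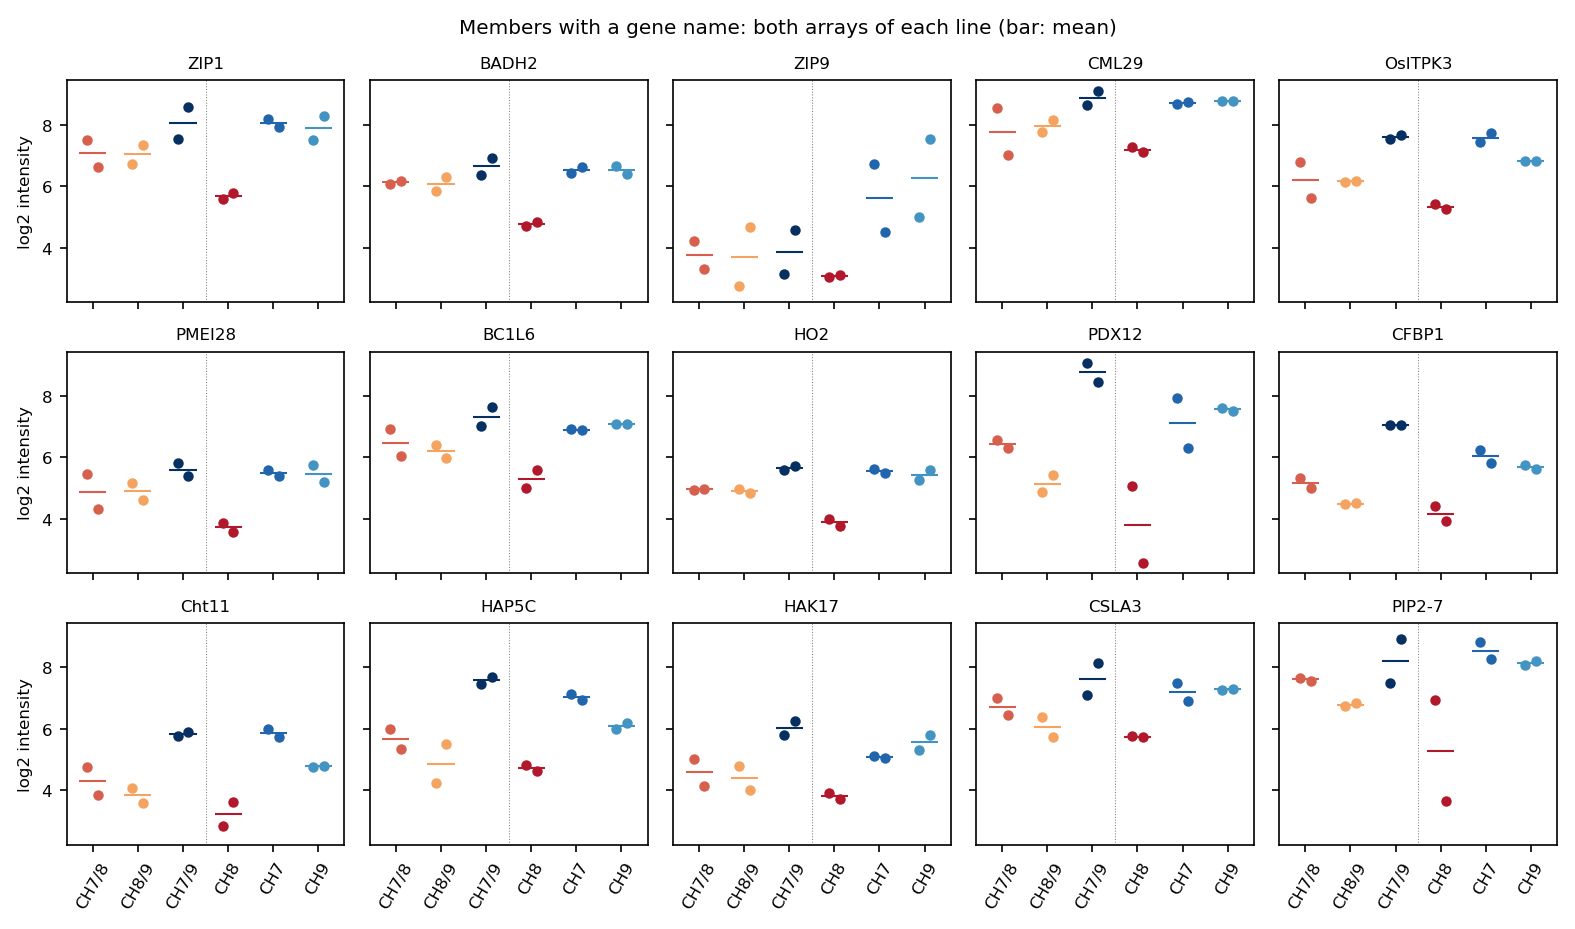
Log2 intensity (y axis) of the 15 genes with a name in each line (x axis), hybrids left of the dotted line and parents right of it, with a point for each array and a bar at the mean. In 12 of the panels all 4 points of ‘CH7/8’ and ‘CH8/9’ lie below both points of ‘CH7/9’. The others are *ZIP9*, *PMEI28* and *PIP2-7*. Of all probe sets, 18.2% had this order.

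The rule used no hybrid array, so the hybrid values could be tested, although the genes were singled out with earlier results of these data known. Before the test, the arrays themselves have to be described. Replicates of a line correlated at 0.966 to 0.984 over all probe sets, and ‘CH7/8’ had the lowest correlation. Neither ‘CH7/8’ array was most like the other. The array closest to ‘CH7/8’ replicate 1 was ‘CH9’ replicate 2 (Pearson's r = 0.980), of a line that is not its parent, and the array closest to ‘CH7/8’ replicate 2 was ‘CH8/9’ replicate 1 (r = 0.984). ‘CH8’ replicate 1 was also closest to ‘CH8/9’ replicate 1 (r = 0.982), and ‘CH7/9’ replicate 1 was closest to ‘CH7’ replicate 1 (r = 0.983). Leaf markers, genes of photosynthesis and chlorophyll synthesis, differed between the lines, with 7 measured, none at 0 and none among the genes described here. Their summed intensity was 425 to 541 in ‘CH7/8’ and 226 to 323 in ‘CH8/9’, against 554 to 647 in ‘CH7/9’, and 378 to 418 in ‘CH8’, against 526 to 561 in ‘CH7’ and 414 to 445 in ‘CH9’. In the comparison below, 5 of the 7 were lower in the ‘CH8’ hybrids at an unadjusted p under 0.05, where 9.2% of all probe sets were. Of the 7, 0 were called by limma, where 0.0892% of all were called lower and 0.126% higher. The 18 root markers summed to 183 to 210 in ‘CH7/8’ and 203 to 204 in ‘CH8/9’, against 231 to 242 in ‘CH7/9’, with 0 of 18 at an unadjusted p under 0.05 in either direction, where 9.2% of all were lower and 5.38% higher. The part of such differences in the make-up of the plants in the results below was not tested.

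The question was whether genes chosen on the parents were also lower in the hybrids that received a ‘CH8’ genome than in the hybrid that did not. Of the 162 probe sets, 104, or 64.2%, had all 4 arrays of ‘CH7/8’ and ‘CH8/9’ below both arrays of ‘CH7/9’, where 18.2% of all probe sets and 18.5% of those with 1 gene had this order. The median difference of the ‘CH8’ hybrids from ‘CH7/9’ was -1.0 on the log2 scale, compared with -0.10 over all probe sets. It was below 0 for 154 of the 162, compared with 63.3% of all probe sets.

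Since the ‘CH7/8’ arrays differed, the count was repeated without each. Leaving out an array can only keep or raise the count, so the share over all probe sets is given beside it. The count was 131 without replicate 1, where 25.2% of all probe sets had this order, with a median difference of -1.25. Without replicate 2 the count was 105, where 21.5% of all had this order, with a median difference of -0.77. Each hybrid alone gave a similar picture. Both ‘CH7/8’ arrays were below both ‘CH7/9’ arrays for 112 probe sets, or 69.1%, where 25.5% of all had this order, and both ‘CH8/9’ arrays for 134, or 82.7%, where 31.8% of all had it. The median difference from ‘CH7/9’ was -0.97 for ‘CH7/8’ and -1.04 for ‘CH8/9’. These comparisons share the ‘CH7/9’ arrays.

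Probe by probe, limma on the 6 hybrid arrays, with Benjamini-Hochberg adjustment over all 54922 probe sets, called 4 of the 162 lower in the ‘CH8’ hybrids and 0 higher, with calls made where the adjusted p did not exceed 0.05 and the difference was 2-fold or more. Over all probe sets, 0.0892% were called lower and 0.126% higher. At an unadjusted p under 0.05, 98 of the 162 were lower and 0 higher, where 9.2% of all were lower and 5.38% higher. For ‘CH7/8’ against ‘CH7/9’, limma called 0 of the 162, where 0.0146% of all were called lower, and 76 were lower at an unadjusted p under 0.05, where 5.69% of all were. For ‘CH8/9’ against ‘CH7/9’ it called *PDX12* and *CFBP1*, where 0.0328% of all were called lower, and 80 were lower at an unadjusted p under 0.05, where 8.79% of all were. The called genes depended on the arrays, and limma called 49 of the 162 lower in the ‘CH8’ hybrids without ‘CH7/8’ replicate 1 and 0 without ‘CH7/8’ replicate 2 or without any single array of ‘CH8/9’ or ‘CH7/9’.

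**Figure D3:**
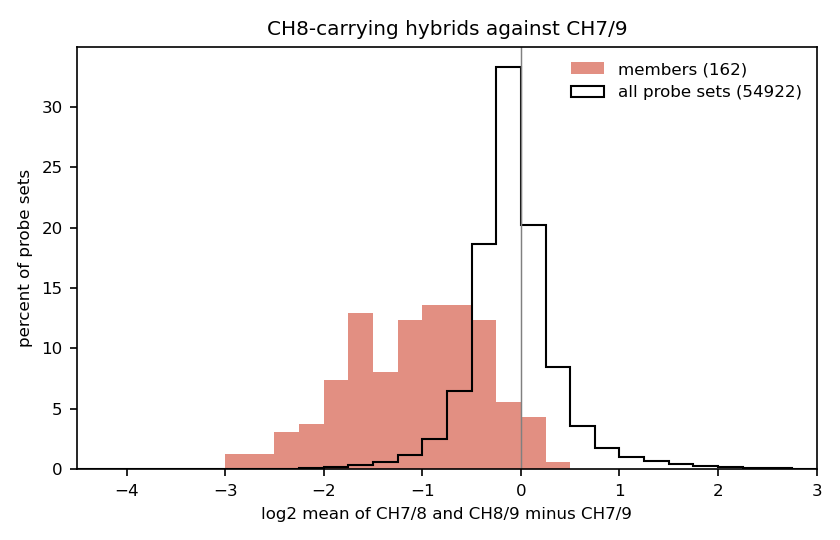
Percent of probe sets (y axis) by the log2 difference between the mean of ‘CH7/8’ and ‘CH8/9’ and ‘CH7/9’ (x axis), for the 162 probe sets low in ‘CH8’ (filled) and all 54922 (line). The filled bars centre on a median of -1.0 and the line on -0.10.

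*PDX12*, a subunit gene of the enzyme that makes vitamin B6, had the largest called difference. It read 6.57 and 6.30 in ‘CH7/8’ and 4.86 and 5.43 in ‘CH8/9’, against 9.06 and 8.47 in ‘CH7/9’, with 5.07 and 2.55 in ‘CH8’, against 7.95 and 6.31 in ‘CH7’ and 7.62 and 7.53 in ‘CH9’. The ‘CH8’ hybrids differed from ‘CH7/9’ by -2.98 on the log2 scale (standard error 0.26, limma adjusted p = 0.0387). Both ‘CH7/9’ arrays exceeded all 4 arrays of its parents, and ‘CH8/9’ kept 19.0% of the ‘CH9’ level. *PDX12* was one of 2 measured genes of this pathway, and *PDX11* was neither in the group nor called.

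*CFBP1*, the cytosolic fructose-1,6-bisphosphatase of sucrose synthesis, whose loss in the rice mutant *moc2* leaves few tillers, had replicates close together in all 3 hybrids. It read 5.32 and 5.02 in ‘CH7/8’ and 4.49 and 4.50 in ‘CH8/9’, against 7.04 and 7.05 in ‘CH7/9’. ‘CH8’ had 4.41 and 3.92, against 6.25 and 5.82 in ‘CH7’ and 5.76 and 5.63 in ‘CH9’. The ‘CH8’ hybrids differed from ‘CH7/9’ by -2.21 (standard error 0.16, limma adjusted p = 0.0226), and here too ‘CH7/9’ exceeded both of its parents.

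The other called genes had no name. *LOC4344733* on chromosome 8 had 6.35 and 6.21 in ‘CH7/8’ and 5.08 and 5.62 in ‘CH8/9’, against 7.61 and 8.06 in ‘CH7/9’, a difference of -2.02 (standard error 0.23, limma adjusted p = 0.0491). *LOC4350501*, a long non-coding RNA on chromosome 11, had 5.23 and 5.25 in ‘CH7/8’ and 5.35 and 5.68 in ‘CH8/9’, against 6.83 and 7.10 in ‘CH7/9’, a difference of -1.59 (standard error 0.18, limma adjusted p = 0.0491). For *LOC4350501* the ‘CH8’ hybrids gave 4 similar values well above those of ‘CH8’, at 3.37 and 3.01.

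‘CH7/9’ above its parents was seen in 3 of the 4 called genes. The calls rest on the same ‘CH7/9’ arrays, and a high ‘CH7/9’ value favours a call, so nothing is read from this count. Over the whole group, both ‘CH7/9’ arrays exceeded all ‘CH7’ and ‘CH9’ arrays for 22 probe sets, or 13.6%, where 11.2% of all probe sets had this order, and were below all of them for 8, or 4.94%, where 4.59% of all were. The median of ‘CH7/9’ minus the mean of its parents was 0.10 on the log2 scale.

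The ‘CH8’ hybrids were also set against each other. For ‘CH7/8’ against ‘CH8/9’, limma called 0 of the 162, where 0.0218% of all probe sets were called in either direction, and at an unadjusted p under 0.05, 4 were lower and 9 higher, where 2.75% of all were in either direction. The median difference was 0.07.

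How much of the higher parent's level each hybrid kept is described without a test, since the parent arrays chose the genes. ‘CH7/8’ had a median of 53.6% of the ‘CH7’ intensity, a median log2 difference of -0.97. ‘CH8/9’ had a median of 59.3% of the ‘CH9’ intensity, a median log2 difference of -0.76. On a linear scale where ‘CH8’ is 0 and the other parent is 1, the median position was 0.404 for ‘CH7/8’ and 0.445 for ‘CH8/9’. The ‘CH7/8’ value rested on arrays that differed, with a median position of 0.487 on replicate 1 and 0.206 on replicate 2, while the ‘CH8/9’ arrays gave 0.421 and 0.488.

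The spread within ‘CH7/8’ was seen across the group. Replicate 2 was below replicate 1 for 122 of the 162 probe sets, at least 2-fold for 58, and at least 2-fold above it for 2. The median of replicate 2 minus replicate 1 was -0.66, compared with -0.02 over all probe sets. Within the other lines the median absolute difference between replicates ran from 0.24 in ‘CH9’ to 0.40 in ‘CH7/9’, compared with 0.71 in ‘CH7/8’.

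For 77 probe sets, all 4 arrays of the ‘CH8’ hybrids lay above both ‘CH8’ arrays and below both arrays of the other parent, an order held by 0.759% of all probe sets. ‘CH7/8’ alone was between its parents without overlap for 106, where 5.83% of all were, and ‘CH8/9’ for 110, where 2.29% of all were. Since the choice of the genes had already set ‘CH8’ below the other parents, nothing is read from these shares. Values at the ‘CH8’ level are likewise given as a description, since the rule used the ‘CH8’ arrays. A ‘CH7/8’ array was no higher than the highest ‘CH8’ array for 2 probe sets on replicate 1 and 19 on replicate 2, and a ‘CH8/9’ array for 21 on replicate 1 and 5 on replicate 2. On both arrays of the hybrid this was so only for *LOC4335369* on chromosome 4 in ‘CH7/8’ and *PIP2-7* in ‘CH8/9’. *LOC4335369* had 2.72 and 2.80 in ‘CH7/8’, against 4.05 and 6.66 in ‘CH7/9’, with 2.90 and 2.65 in ‘CH8’.

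At the other end, a single gene kept the full level in both hybrids. *LOC4352195* on chromosome 12, the only gene with 2 probe sets, had 7.65 and 8.25 in ‘CH7/8’ and 7.59 and 7.17 in ‘CH8/9’ on the first of them, against 5.66 and 5.78 in ‘CH8’, 7.29 and 7.08 in ‘CH7’ and 7.54 and 6.95 in ‘CH9’. Its second probe set gave 7.69 and 8.28 in ‘CH7/8’ and 7.64 and 7.25 in ‘CH8/9’. None of these arrays was below the lowest array of the higher parent.

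**Figure D4:**
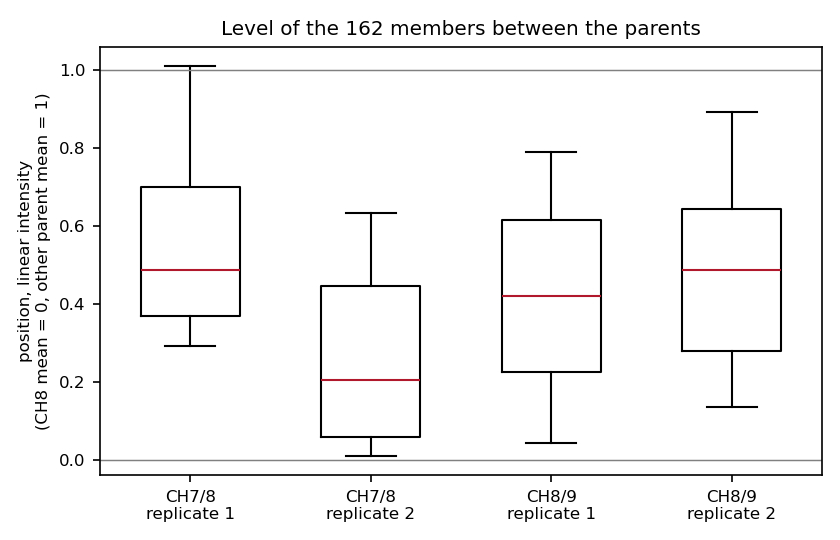
Position of the 162 probe sets between ‘CH8’ (0) and the other parent (1) on the linear intensity scale (y axis) for each array of the ‘CH8’ hybrids (x axis), with the median as a red line, the quartiles as a box and the 10th and 90th percentiles as whiskers. The medians are 0.487 and 0.206 for ‘CH7/8’ and 0.421 and 0.488 for ‘CH8/9’.

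The level in the hybrids was also set beside the size of the gap in the parents. The 15 probe sets with a gap of at least 3 had a median difference of -1.28 between the ‘CH8’ hybrids and ‘CH7/9’, and the 20 with a gap of 2 to 3 and the 127 with a smaller gap had -0.96 and -0.99. The 15 kept a median of 40.3% of the ‘CH7’ level in ‘CH7/8’ and 52.3% of the ‘CH9’ level in ‘CH8/9’. The 14 that were below the first quartile in ‘CH8’ kept 48.7% and 69.7%. Several of these, such as *LOC4330063* on chromosome 2 with 6.20 and 2.93 in ‘CH7/8’, had replicates far apart.

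The genes lay on all 12 chromosomes. Of 23836 measured genes placed on a chromosome, 0.675% were in the group. The share was highest on chromosome 11 with 19 of 1377 genes (1.38%) and chromosome 12 with 16 of 1294 (1.24%), and then on chromosome 8 with 16 of 1599 (1.00%). It was lowest on chromosome 10 with 3 of 1249 (0.240%). Chromosome 1 held the most genes, 24 of 3467 (0.692%). The genes of chromosome 11 had a median difference of -0.55 between the ‘CH8’ hybrids and ‘CH7/9’.

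**Figure D5:**
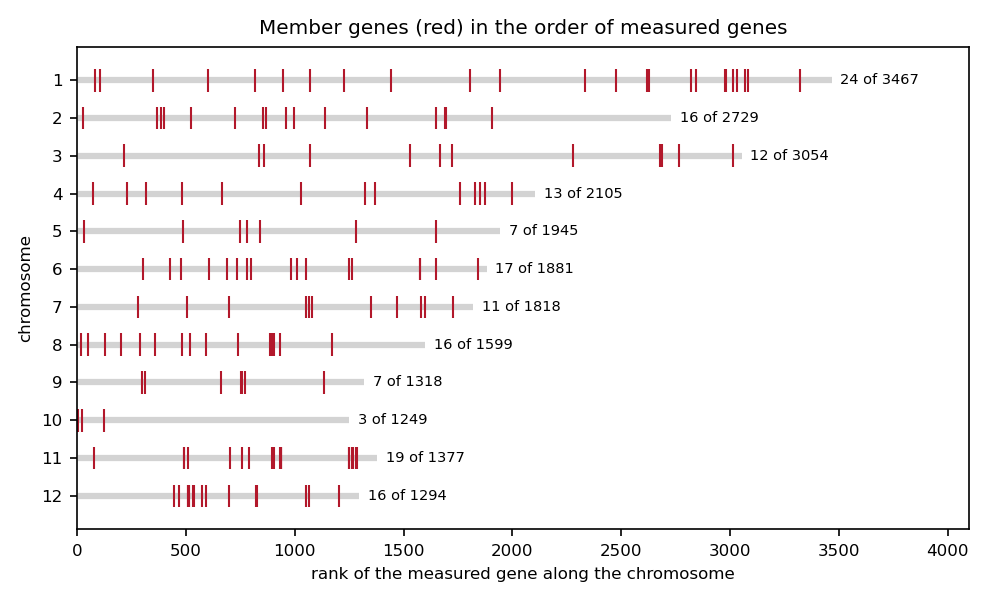
Rank of each measured gene along its chromosome (x axis) for the 12 chromosomes (y axis), with the 161 genes low in ‘CH8’ in red and their number of the measured genes beside each bar. Chromosomes 11 and 12 have the highest shares, with 19 of 1377 and 16 of 1294 genes, and chromosome 10 the lowest, with 3 of 1249.

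By gene order in the RefSeq annotation of assembly ASM3414082v1, 28 of the 161 genes, or 17.4%, had another within the next 5 measured genes, in 12 groups. The same count was 16.1% for the 155 genes that were high in ‘CH8’ only by the mirrored rule and 16.7% for the 228 that were low in ‘CH7’ only. Among the 16 genes low in ‘CH9’ only it was 7, or 43.8%. Of the 161 genes, 8 had a gene high in ‘CH8’ only within the same distance.

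The longest groups held 4 genes each. The group on chromosome 11 was *LOC9268719*, *LOC9267561*, *LOC9270219* and *LOC9267407*, within 6 measured genes, and included the largest gap of all. *LOC9268719* had 6.99 and 6.62 in ‘CH7/8’ and 6.63 and 6.64 in ‘CH8/9’, against 7.57 and 7.25 in ‘CH7/9’, with 2.41 and 2.54 in ‘CH8’. *LOC9267561* and *LOC9270219* were long non-coding RNAs and stood side by side. Of the measured genes between them, *LOC9271786* differed little, with means of 3.55 in ‘CH8’, against 3.72 in ‘CH7’ and 3.87 in ‘CH9’, and *LOC9271826* was low in ‘CH8’ and ‘CH9’, at 1.65 and 1.83, and high in ‘CH7’ at 6.08. Neither gene met the rule. How far low levels in ‘CH8’ ran through the stretch was not tested.

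The hybrids kept a large part of these levels. ‘CH7/8’ kept 54.6% of the ‘CH7’ level for *LOC9268719*, 79.7% for *LOC9267561*, 57.0% for *LOC9270219* and 81.9% for *LOC9267407*, and ‘CH8/9’ kept 57.1%, 82.4%, 74.6% and 74.9% of the ‘CH9’ level for the same genes in that order. *LOC9267407*, with a gap of 1.01, overlapped between the hybrids, at 4.65 and 5.07 in ‘CH7/8’ and 4.68 and 4.96 in ‘CH8/9’, against 5.16 and 4.70 in ‘CH7/9’.

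The group on chromosome 12 was *LOC4351887*, *LOC4351893*, *LOC4351897* and *LOC9272337*, also within 6 measured genes. For all 4, the arrays of the ‘CH8’ hybrids lay below both ‘CH7/9’ arrays, an order that 18.2% of all probe sets had. *LOC4351897* had 5.48 and 5.45 in ‘CH7/8’ and 5.59 and 5.47 in ‘CH8/9’, against 6.68 and 6.64 in ‘CH7/9’, and its difference of -1.17 (standard error 0.15) missed the threshold at a limma adjusted p of 0.0588. *LOC4351887* differed between the higher parents, at 8.18 and 7.67 in ‘CH9’, against 5.27 and 6.39 in ‘CH7’. ‘CH8/9’ kept 15.0% of its ‘CH9’ level and ‘CH7/8’ 72.8% of its ‘CH7’ level, the most unequal pair of the group. The 2 measured genes between the first and second of these had means of 2.67 and 3.24 in ‘CH8’, against 3.6 to 3.93 in the other parents.

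The other 10 groups were pairs. On chromosome 8, *LOC4345556* had 5.26 and 5.04 in ‘CH7/8’ and 5.07 and 5.12 in ‘CH8/9’, against 6.43 and 6.38 in ‘CH7/9’, and 2.3 and 2.34 in ‘CH8’. It was paired with *LOC4345559*, and the 3 measured genes between them, *APRL4* among them, had differences of -0.58 to -0.23 for ‘CH8’ minus the mean of the other parents. Other pairs differed in this. The measured genes between *LOC4324919* and *LOC4324956* on chromosome 1 ran from -2.05 to -0.46. Those between *LOC4351105* and *LOC9269902* on chromosome 11 ran from -0.17 to 0.38. On chromosome 11, the pair *LOC4351060* and *LOC4351063* enclosed *TCTP*, a translationally controlled tumour protein gene, which was at 10.27 in ‘CH8’, against 10.35 in ‘CH7’ and 10.25 in ‘CH9’. The adjacent pair *LOC4352346* and *LOC9266183* on chromosome 12 included the highest level of the group, *LOC9266183* with 8.73 and 8.71 in ‘CH8’, against 10.87 and 10.82 in ‘CH7’ and 10.69 and 10.72 in ‘CH9’. Its hybrids kept to the same order, with 10.38 and 9.59 in ‘CH7/8’ and 10.29 and 10.13 in ‘CH8/9’, against 10.74 and 10.83 in ‘CH7/9’.

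The mirrored group served as a comparison for the hybrid result. Of the 155 probe sets high in ‘CH8’ only, 100, or 64.5%, had all 4 arrays of the ‘CH8’ hybrids above both ‘CH7/9’ arrays, an order seen in 8.09% of all probe sets, and their median difference was 1.14. The 64.2% of the genes low in ‘CH8’ and the 64.5% of those high in ‘CH8’ are given side by side and were not tested against each other.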

How the data were processed

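RNA of whole plants was hybridised to Affymetrix GeneChip arrays. The authors deposited normalized intensity values on a linear scale; their methods name RMA with quantile normalization, the submitters' processing notes name MAS5, and the deposited values do not settle which. Array medians ran from 10.9 to 12.4. The number of arrays, 2 per line, limits the precision. Values were taken as log2 with no pseudocount. Probe sets were named through the platform's gene table and RefSeq (24079 of 24080 probe sets matched). 95 probe sets with several genes and 30747 with none were left out of the rule but kept in the tests.

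Members and gene lists were chosen with earlier results of these data known. Hybrid contrasts were fitted with limma 3.58.1 (R 4.3.3) on the 6 hybrid arrays, with a mean per line, eBayes and Benjamini-Hochberg adjustment over 54922 probe sets, with calls where the adjusted p did not exceed 0.05 and the difference was 2-fold or more. The study's SAM test was not run here. The script was tested on simulated data. Genes named were all members with a name, the 12 largest gaps, called members, the longest neighbouring groups and those beside the threshold, and others (*LOC4335369*, *LOC4352195*, *LOC4330063* and the pairs) were picked after their values were seen. Alternatives were other normalizations, gaps, filters and models, and leaving out each array.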

Additional observations from a re-analysis of the deposited data

Results flagged for a closer look

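*LOC4347340*, a pseudogene on chromosome 9, was flagged because its hybrids moved in opposite directions relative to the higher parent. ‘CH7/8’ was -1.80 from ‘CH7’ on the log2 scale and ‘CH8/9’ was 0.605 from ‘CH9’. It read 6.50 and 3.62 in ‘CH7/8’, against 6.71 and 7.01 in ‘CH7’, and 5.23 and 5.26 in ‘CH8/9’, against 4.28 and 5.0 in ‘CH9’. The parents that serve as the comparison also differ, and the difference between the hybrids' changes was not tested.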

How the results depend on the processing

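The parental gap set the size of the group, with 582 probe sets at 0.5, 35 at 2 and 81 with a pseudocount of 10; leaving out a parent array gave 176 to 368. Called lower in the ‘CH8’ hybrids were 4, against 32 with all 12 arrays, 2 with quantile normalization, 0 with a pseudocount of 10, 11 without dim probe sets and 0 with array weights; leaving out an array gave 0 to 49. For ‘CH8/9’ the count of 2 became 27, 0, 6 and 1 under the same settings apart from quantile normalization, and 5 with a mean-dependent trend; leaving out an array gave 0 to 23. For ‘CH7/8’ the count of 0 became 10 with all 12 arrays. With the replicate number as a block, 0 genes were called in either contrast. The sample labels name no batch, and deviations of same-numbered arrays correlated between lines at -0.33 to 0.20. Whether same-numbered arrays share a batch was not tested. The level kept in ‘CH7/8’ was 0.404 as a linear position and -1.30 to -0.73 without an array. In ‘CH8/9’ it was 0.445 as a linear position, -0.81 with median centring, -0.59 with a pseudocount of 10 and -0.76 to -0.68 without an array. The share on chromosome 11 was 3.70% at a gap of 0.5 and 0.508% at 2, and neighbours made up 26.9% and 11.4%. Without an array, the difference of the ‘CH8’ hybrids from ‘CH7/9’ changed sign for *LOC9267407*, at 0.01 (without ‘CH7/8’ replicate 1) and 0.14 (without ‘CH7/9’ replicate 1), for *ZIP9*, at -0.84 to 0.61, and for *LOC9272594*, at -0.28 to 0.29. Of 569 alternative values for the 38 named genes, 8 changed direction. Most of these genes were not called and kept their side of the threshold simply by staying uncalled, so no count of kept sides is given. The 4 calls depended on the setting, as the counts above show. The alternatives for ‘CH7/8’ against ‘CH8/9’ and for the array orders were chosen after seeing the data. The causes were not tested.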
